A study of Mus musculus with 16 samples.

Results

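The mitochondrial genome is a small circular chromosome that cells keep in many copies apart from the nuclear DNA. It encodes core subunits of complexes I, III and IV of the respiratory chain and of ATP synthase, and the ribosomal RNAs (rRNAs) and transfer RNAs (tRNAs) with which mitochondria translate them, while all other mitochondrial proteins come from nuclear genes. Both strands are copied into long transcripts, which are cut at the tRNAs that lie between most of the other genes, so that the level of a mature mitochondrial mRNA depends on transcription, cutting and stability together. Hematopoietic stem cells (HSCs) are known to rely little on respiration at rest and more on it when they divide and differentiate.

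The genes were chosen by name, as all lines of the count table whose gene name starts with mt-. There were 37 such genes of 46078 in the table, and they are 13 protein-coding genes, 2 rRNA genes and 22 tRNA genes. Of these, 12, 2 and 14 passed the filter on low counts and were tested, among 13661 genes tested in all. The gene that encodes the ND4L subunit (mt-Nd4l) and 8 tRNA genes were not tested, and 3 of those tRNA genes, mt-Td, mt-Tk and mt-Tr, had a count of 0 in all 16 samples.

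The samples are wild-type mouse HSCs of the B6.SJL strain, sorted from bone marrow as LSK CD48- CD150+ cells and divided by their surface level of MAC-1, an integrin of mature myeloid cells. At steady state (SS), with no treatment, there were 3 SS MAC-1- and 3 SS MAC-1low samples. The other HSCs were taken 4 weeks after 8000 LSK cells had been transplanted into recipients irradiated with 900 cGy, and gave 3 4 week MAC-1-, 4 4 week MAC-1low and 3 4 week MAC-1+ samples. The transplanted and the untreated HSCs therefore differ in irradiated host, in time since transplantation and in the expansion of the graft, which these samples cannot tell apart. The sources do not say whether replicates came from separate animals, so that p-values measure the spread between these samples, and in bulk samples fewer cells with an RNA and less of it per cell cannot be told apart.

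The samples held 13781278 to 28580658 counts on 14533 to 17576 genes. The 8 HSC marker genes looked at had counts in every population, at a summed level of 1477 to 3457 normalised CPM, counts scaled to the library size, in each population except 4 week MAC-1-, which held 691 to 890. In 4 week MAC-1- HSCs 6 megakaryocyte and platelet genes together stood at 4251 to 6744 CPM, against 156 to 1097 in the other populations. In 4 week MAC-1+ HSCs 6 neutrophil genes together ranged from 164 to 6947 CPM, against 23.1 to 168 elsewhere, and 6 erythroblast genes from 77.3 to 178 CPM, against 11.96 to 55.4 elsewhere. These levels move with the comparisons below that include either population, and their part in any difference was not tested.

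Sequences come before levels here, because part of the mitochondrial genome has a close copy in the nuclear genome that is annotated gene by gene. Gene names of the table were matched to GENCODE M21 on assembly GRCm38, an annotation chosen for this work, since the sources used here do not give the authors' own build and annotation. In it, 6 annotated nuclear copies lie side by side on the minus strand of chromosome 1, between 24611535 and 24616197. Gm28661 matches mt-Co2 over 681 of its 684 bases, Gm10925 matches mt-Atp6 over 678 of 681, and Gm28437 matches mt-Co3 over 783 of 784, each with 0 mismatches. Gm28439 matches the opening 876 of the 1378 bases of mt-Nd4, also with 0 mismatches. The distances between neighbouring copies and between their mitochondrial counterparts are nearly the same, for example 140 and 140 bases between the copies of mt-Co1 and mt-Co2 and between these genes, and 364 and 360 bases for mt-Nd3 and mt-Nd4.

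A read from such a gene can tell the mitochondrial from the nuclear origin only where the letters differ, and the next sequences are shown because they hold all differences found in the 6 copies. They are DNA letters from GENCODE M21, written from 5′ to 3′ in the sense of the gene, and capitals mark the bases that differ.
mt-Co1, bases 1054 to 1113: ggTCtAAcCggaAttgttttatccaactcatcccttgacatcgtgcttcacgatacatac
Gm29216, bases 1 to 60: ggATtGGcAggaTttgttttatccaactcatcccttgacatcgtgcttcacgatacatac
mt-Nd3, bases 1 to 60: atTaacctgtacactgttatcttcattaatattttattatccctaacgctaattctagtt
Gm28438, bases 1 to 60: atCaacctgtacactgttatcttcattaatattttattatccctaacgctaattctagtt
Counted from the 5′ end of the mitochondrial gene, the copy of mt-Co1 differed at T1056A, C1057T, A1059G, A1060G, C1062A and A1066T, which are 6 differences in 492 bases, all near its start. The copy of mt-Nd3 differed at T3C alone in 345 bases.

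mt-Atp8, which encodes a small subunit of ATP synthase, is shown whole because it is only partly covered by an annotated copy. Its last 43 bases, in capitals, overlap mt-Atp6 and are found in Gm10925 with 0 mismatches.
mt-Atp8: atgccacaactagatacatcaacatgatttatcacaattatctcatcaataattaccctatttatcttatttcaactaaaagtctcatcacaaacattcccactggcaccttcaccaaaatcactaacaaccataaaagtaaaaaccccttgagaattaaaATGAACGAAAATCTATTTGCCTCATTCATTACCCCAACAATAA
The rest of mt-Atp8 and the whole of mt-Tk lie between mt-Co2 and mt-Atp6. This stretch is 230 bases long in the mitochondrial genome and 233 bases long between the nuclear copies, whose letters there were not looked at.

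The protein-coding genes fell into 2 sets by their counts, which the plot of level against shared sequence shows. The 7 genes mt-Cytb, mt-Co1, mt-Nd1, mt-Nd2, mt-Nd4, mt-Nd5 and mt-Nd6 had 11905 to 893253 counts in a sample and held 97.8% to 99.9% of all counts on the 13 genes. The other 6, mt-Co2, mt-Co3, mt-Atp6, mt-Atp8, mt-Nd3 and mt-Nd4l, had 0 to 31626 counts and held 0.0894% to 2.22%. Every window of 50 bases of mt-Co2 was found in a nuclear transcript, as were 99.9% of those of mt-Co3, 99.5% of mt-Atp6, 98.8% of mt-Nd4l and 98.0% of mt-Nd3. Nuclear matches were not limited to the 6 copies above. For mt-Nd4l, 245 of 248 windows were found in Gm10222, which was not aligned. Of the 765 shared windows of mt-Co1, 430 were found in Gm29216. Among the 7 abundant genes this share was 0% for mt-Cytb, mt-Nd1 and mt-Nd6, 7.61% for mt-Nd5, 8.19% for mt-Nd2, 51.1% for mt-Co1 and 62.2% for mt-Nd4. mt-Atp8, at 0% in windows of this length, was the only gene low in counts with no such window.

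**Figure D1:**
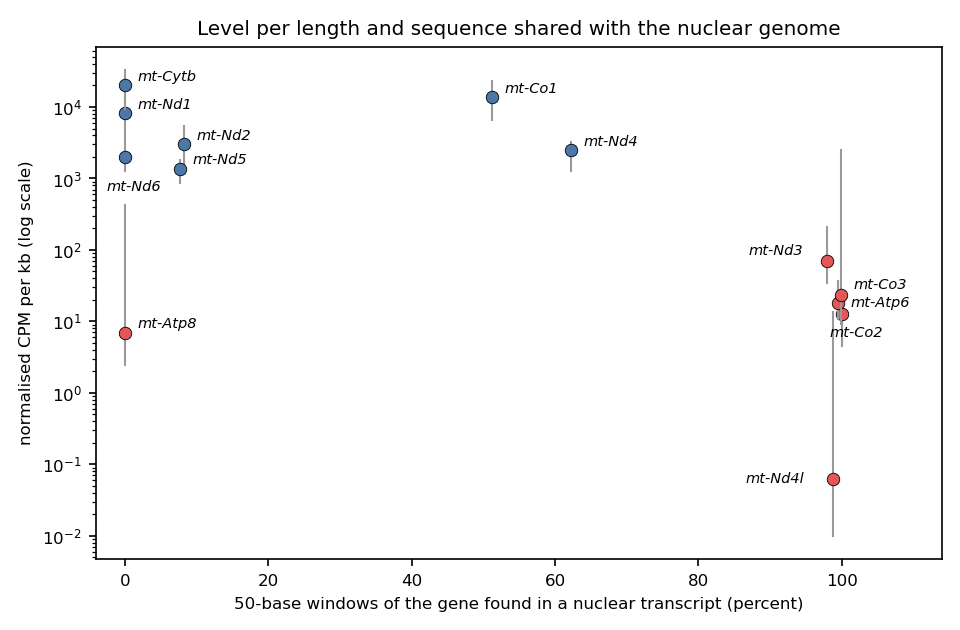
The level of each of the 13 mitochondrial protein-coding genes, in normalised CPM per kb of transcript on a log scale, is plotted against the percentage of its 50-base windows that also occur in a nuclear transcript of GENCODE M21. Points are medians over 16 samples and lines run from the lowest to the highest sample, where the 0 of mt-Nd4l is drawn at 0.01. The 7 abundant genes, in blue, sit at 62.2% shared windows or less, and 5 of the 6 others, in red, at 98.0% or more.

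Per kb of transcript, the median level over samples was 20480 CPM for mt-Cytb, the cytochrome b of complex III, and 13740 CPM for mt-Co1, the catalytic subunit of complex IV. It was 8133 CPM per kb for mt-Nd1, 3013 for mt-Nd2, 2519 for mt-Nd4, 1973 for mt-Nd6 and 1377 for mt-Nd5, which all encode subunits of complex I, the entry point of electrons from NADH. The complex IV subunits mt-Co2 and mt-Co3 stood at 12.7 and 23.2 CPM per kb, and mt-Atp6, a subunit of ATP synthase, at 18.3. Some nuclear copies held about as many counts as their counterparts, with 41 to 465 counts a sample on Gm28661 beside 55 to 332 on mt-Co2, and 134 to 519 on Gm10925 beside 133 to 501 on mt-Atp6. Others held far fewer, with 0 to 22 counts on Gm28438 beside 280 to 1439 on mt-Nd3, and 4 to 23 on Gm28439 beside 31348 to 98015 on mt-Nd4. The sources used here do not say how reads with matches in both places were counted, so that the levels of these genes, and of the shared stretches of mt-Co1 and mt-Nd4, are uncertain.

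Some of the 6 genes jumped in single samples. mt-Co3 had 31626 counts in 4 week MAC-1low replicate 1 and 130 to 1214 in the other 15 samples. mt-Atp8 had 1821 counts and mt-Nd4l 85 counts in 4 week MAC-1+ replicate 1, where the other samples had 9 to 48 and 0 to 8. The copy of mt-Co3, Gm28437, had 3859 counts in 4 week MAC-1- replicate 2 and 162 to 1212 elsewhere. No other sample of the same population came near these counts.

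Mitochondrial genes together took 3.96% to 9.62% of the counts of a sample, and the protein-coding genes 3.29% to 8.84%. For the protein-coding genes the mean was 6.05% ± 0.376 (SD, n = 3) in SS MAC-1-, 4.66% ± 1.24 (n = 3) in SS MAC-1low, 7.17% ± 1.09 (n = 3) in 4 week MAC-1-, 7.24% ± 1.403 (n = 4) in 4 week MAC-1low and 6.90% ± 1.501 (n = 3) in 4 week MAC-1+ HSCs. The 3 SS MAC-1low samples, at 5.69%, 3.29% and 5.01%, all lay below the 3 SS MAC-1- samples, at 5.89%, 5.79% and 6.48%. The 3 populations at 4 weeks overlapped one another. The counting error of such a share is small, since the exact binomial interval at 95% was never wider than 0.0136 percentage points to either side. PCR copies were counted as reads here, so that intervals and floors cover counting error only.

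The rRNAs, which form the 2 subunits of the mitochondrial ribosome, took 0.402% to 1.23% of counts, and mt-Rnr1 was counted at 28.1% ± 2.98 of mt-Rnr2 in 4 week MAC-1- (n = 3) and at 50.05% ± 17.9 in SS MAC-1low HSCs (n = 3). The tRNAs took 0.00478% to 0.0223%.

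**Figure D2:**
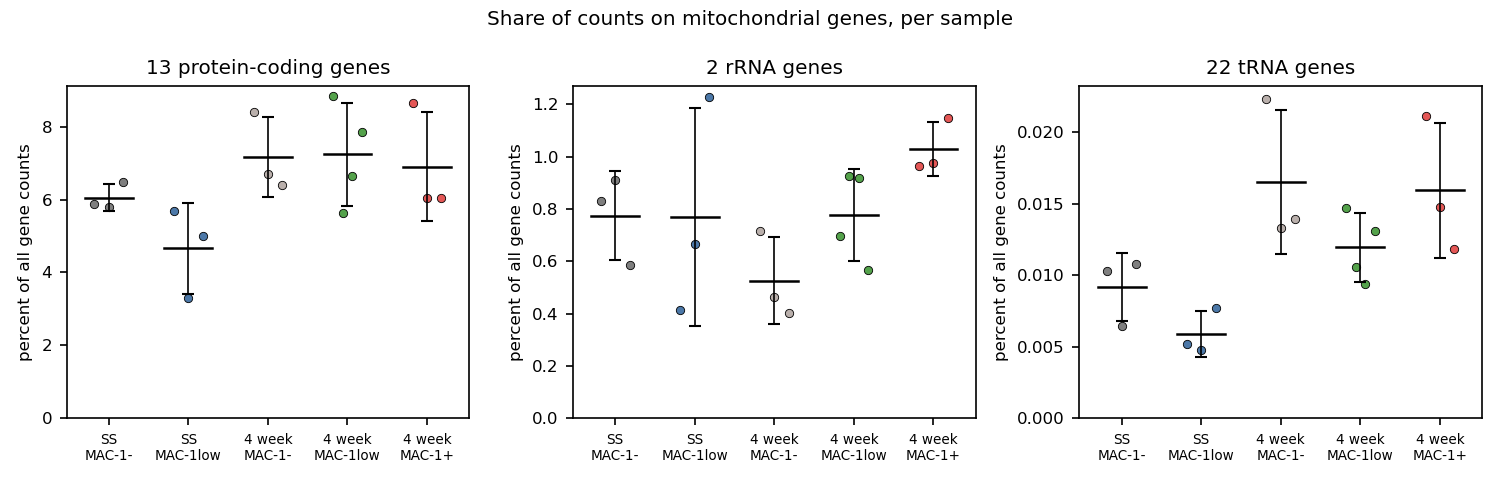
The percentage of all gene counts on mitochondrial protein-coding, rRNA and tRNA genes is plotted for each of the 16 samples, with a line at the mean of each population and bars of 1 SD. The protein-coding genes run from 3.29% in an SS MAC-1low sample to 8.84% in a 4 week MAC-1low sample, and the 3 SS MAC-1low samples lie below the 3 SS MAC-1- samples.

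Differences between populations were tested for each gene with edgeR's quasi-likelihood test, fitted on all genes and samples, and a gene was called at an adjusted p (Benjamini-Hochberg) below 0.1. A single test over the 5 populations called 1 of the 12 protein-coding genes tested, mt-Co3, at an adjusted p of 0.0839, and 2.22% of all genes. Without 4 week MAC-1low replicate 1, the sample with the jump, its adjusted p was 0.593, and the call was lost in 13 of the 16 fits that each left out 1 sample. At an unadjusted p below 0.05 the same test held 7 of the 12, among 13.8% of all genes, and they were mt-Nd1, mt-Nd2, mt-Nd5, mt-Nd6, mt-Cytb, mt-Co3 and mt-Atp8. DESeq2 called 3, mt-Nd1, mt-Nd2 and mt-Nd6, against 13.7% of all genes, and gave no adjusted p for mt-Co3, while limma-voom called 0 against 6.65%. On simulated counts with the spread of these samples DESeq2 made more false than true calls, so that its calls here and below need care. In the 10 pairwise comparisons edgeR called 0 of the mitochondrial genes, and the counts below, at an unadjusted p or by the other tools, are given beside the same share of all genes. The mitochondrial genes share libraries and are cut from shared long transcripts. They are not replicates, so that each such count is a description and not a number of separate results.

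Comparing the 4 week MAC-1+ with the 4 week MAC-1- HSCs addresses what sets the most and the least MAC-1 expressing HSCs apart in regeneration. Here the mitochondrial mRNAs did not stand on 1 side. mt-Nd2 and mt-Nd6 and both rRNAs were at higher levels in all 3 MAC-1+ samples than in any MAC-1- sample, while mt-Nd1 and mt-Cytb had lower means in MAC-1+. None of them passed edgeR's threshold, and 3.25% of all genes did.
The level of mt-Nd2 was 5539, 4842 and 3891 CPM in the MAC-1+ and 3789, 2343 and 2555 CPM in the MAC-1- samples, a log2 fold change of 0.72 (SE 0.27, adjusted p = 0.250 by edgeR). Its adjusted p was 0.0569 by limma-voom and 0.107 by DESeq2. mt-Nd6, the only protein-coding gene of the minus strand, was at 1026, 1638 and 1208 CPM against 1022, 695 and 845 CPM, where the lowest MAC-1+ sample was just above the highest MAC-1- sample. Its log2 fold change was 0.60 (SE 0.21) with an adjusted p of 0.219 by edgeR, 0.0547 by DESeq2 and 0.0875 by limma-voom. Since the library does not mark the strand, reads of mt-Nd6 cannot be told apart from reads of the opposite strand, here and below.
Of all genes, 10.2% were likewise at higher levels in MAC-1+ without overlap, against 2 of the 12 protein-coding genes, and 11.5% at lower levels, against 0. At an unadjusted p below 0.05 edgeR held 3 of the 12, the third being mt-Atp8 with its 1 high sample, beside 13.4% of all genes. DESeq2 called 1 (11.3% of all genes) and limma-voom called 2 (6.52%).

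For the rRNAs the same comparison gave a log2 fold change of 1.03 (SE 0.42, adjusted p = 0.288 by edgeR) for mt-Rnr1 and of 0.74 (SE 0.30, adjusted p = 0.288) for mt-Rnr2. limma-voom called mt-Rnr2 (adjusted p = 0.0611) and not mt-Rnr1 (0.159). In contrast, the log2 fold change was -0.38 (SE 0.26) for mt-Nd1 and -0.41 (SE 0.26) for mt-Cytb, with samples that overlapped. It was -0.07, -0.02 and -0.18 for mt-Co1, mt-Nd4 and mt-Nd5. The median over the 12 genes was 0.01, and over all genes tested 0.07.

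**Figure D3:**
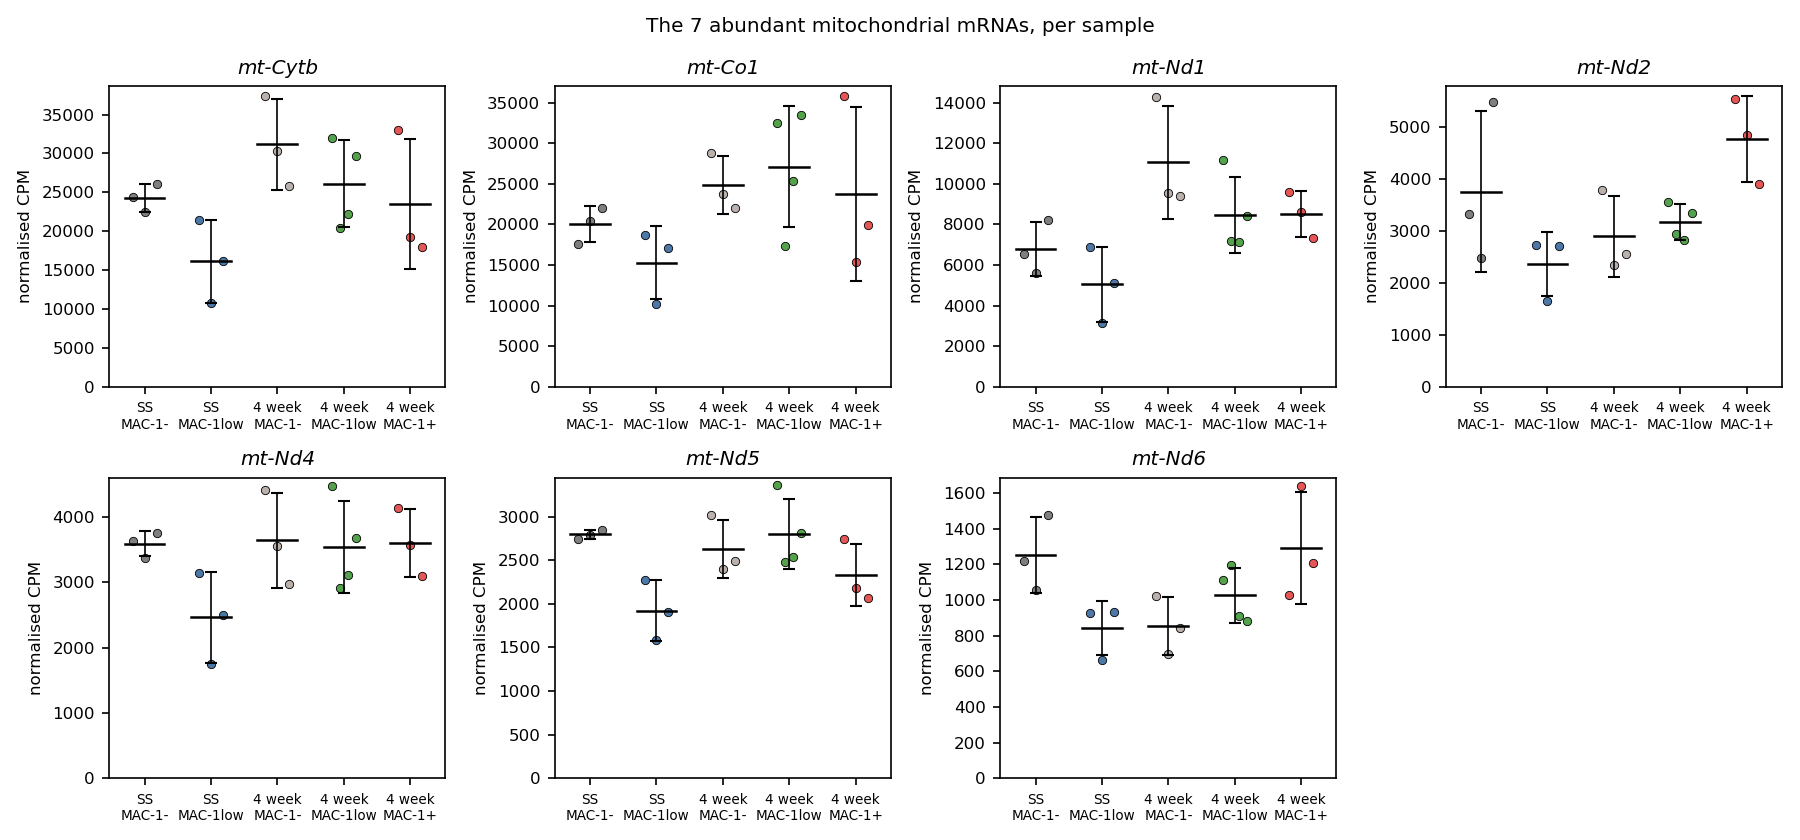
Normalised CPM of the 7 abundant mitochondrial mRNAs is plotted for each sample by population, with lines at the means and bars of 1 SD. mt-Nd2 is highest in mean in 4 week MAC-1+ HSCs at 4757 CPM and mt-Nd1 in 4 week MAC-1- HSCs at 11070 CPM, while the SS MAC-1low samples have the lowest mean of all populations for each of the 7 genes.

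These opposite directions show in the make-up of the mitochondrial mRNA. The ratio of mt-Nd2 to mt-Nd1 counts is a measure that needs no scaling between libraries, and it was picked after these values had been seen, so no test is given. The ratio was 0.266, 0.246 and 0.272 in 4 week MAC-1- HSCs, below every other sample. It was 0.318, 0.410, 0.398 and 0.397 in 4 week MAC-1low and 0.577, 0.561 and 0.531 in 4 week MAC-1+ HSCs, so that the 3 populations did not overlap and followed their order of MAC-1. How often ratios of other gene pairs separate these populations was not looked at. At steady state it was 0.506, 0.441 and 0.664 in MAC-1- and 0.398, 0.524 and 0.529 in MAC-1low HSCs, which overlapped each other.
As a share of the counts on the 13 genes, mt-Nd2 made up 3.73% ± 0.445 in 4 week MAC-1-, 4.45% ± 0.659 in 4 week MAC-1low and 7.24% ± 1.36 in 4 week MAC-1+, beside 5.87% ± 1.80 and 5.41% ± 0.492 in SS MAC-1- and SS MAC-1low HSCs. mt-Nd1 made up 14.2% ± 1.13 in 4 week MAC-1- and 10.8% ± 1.10 to 13.1% ± 2.55 in the other 4 populations. mt-Cytb, the most counted, took 40.4% ± 1.32 in 4 week MAC-1- and 34.3% ± 1.84 in 4 week MAC-1+ HSCs. mt-Nd6 took 1.11% ± 0.160 in the former and 2.08% ± 0.920 in the latter, where its lowest sample, at 1.11%, was within the range of the MAC-1- samples (0.958% to 1.28%). The rRNAs amounted to 7.24% ± 1.14 of the mRNA counts in 4 week MAC-1-, 11.4% ± 4.54 in 4 week MAC-1low and 15.45% ± 3.98 in 4 week MAC-1+, and to 12.95% ± 3.51 and 17.4% ± 8.99 in SS MAC-1- and SS MAC-1low HSCs.

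With the counts on the 13 genes taken as the library size, a scaling added after the values had been seen, edgeR called mt-Nd2 between the 4 week MAC-1+ and the 4 week MAC-1- HSCs (log2 fold change 0.96, SE 0.22, adjusted p = 0.0799), beside 0.856% of all genes. Leaving out 1 sample at a time lost this call in 9 of 16 fits of edgeR, with log2 fold changes of 0.80 to 1.08 and adjusted p-values of 0.0589 to 0.315. It was also lost when only these 2 populations were fitted (0.96, adjusted p = 0.173 by edgeR) and in a fit with a term for how many genes a sample had counts on (0.87, adjusted p = 0.206).

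**Figure D4:**
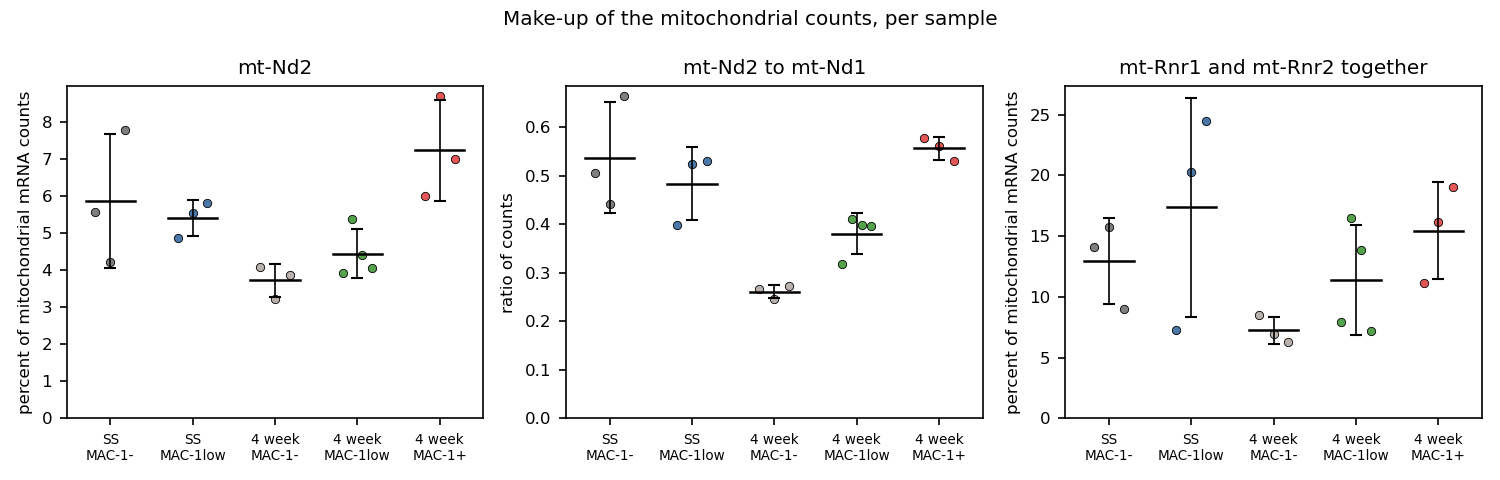
The share of mt-Nd2 in the counts on the 13 mitochondrial protein-coding genes, the ratio of mt-Nd2 to mt-Nd1 counts, and the counts on both rRNAs as a percentage of those on the 13 genes are plotted for each sample, with means and bars of 1 SD. The ratio was picked after these values had been seen. It is lowest in the 3 4 week MAC-1- samples (0.246 to 0.272). It lies between 0.318 and 0.410 in 4 week MAC-1low and between 0.531 and 0.577 in 4 week MAC-1+ samples.

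4 week MAC-1low HSCs were also set against each of the other 4 week populations, and their samples overlapped those of both for each of the 7 abundant genes except mt-Nd2. Their mean of mt-Nd5 was the highest of the 3, at 2796 CPM ± 402 (n = 4) beside 2632 CPM ± 333 in MAC-1- and 2328 CPM ± 358 in MAC-1+ HSCs (n = 3 each). Against 4 week MAC-1- HSCs the log2 fold changes of the 7 abundant genes ran from -0.39 to 0.26, edgeR, DESeq2 and limma-voom called 0 of the 12 protein-coding genes (0.278%, 4.13% and 2.34% of all genes), 0 lay above and 0 below without overlap (5.23% and 5.53%), and 1, mt-Co3, had an unadjusted p below 0.05 (7.25% of all genes). 4 week MAC-1+ against 4 week MAC-1low HSCs gave -0.26 to 0.59 for the 7 genes and again 0 calls by edgeR, DESeq2 and limma-voom (0%, 3.09% and 0.0366% of all genes). mt-Nd2 had the highest of these values, 0.59 (SE 0.25, adjusted p = 0.702 by edgeR), and its lowest MAC-1+ sample, at 3891 CPM, was above the highest MAC-1low sample, at 3547 CPM, as for 3.75% of all genes, while 0 of the 12 lay below without overlap (4.48%). With mt-Atp8 and mt-Co3 it made 3 genes with an unadjusted p below 0.05, beside 6.85% of all genes.

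At steady state, SS MAC-1low HSCs had lower means than SS MAC-1- HSCs for all 7 abundant genes. The log2 fold changes ran from -0.66 for mt-Nd2 to -0.39 for mt-Co1, and their median was -0.54, beside 0.00 over all genes. edgeR called 0 of the 12 protein-coding genes and 0.0146% of all genes. An unadjusted p below 0.05 was found for 5 of the 12, mt-Nd2, mt-Nd4, mt-Nd5, mt-Nd6 and mt-Cytb, beside 9.36% of all genes. The clearest values were those of mt-Nd5, with 2741, 2793 and 2850 CPM in SS MAC-1- and 2277, 1585 and 1907 CPM in SS MAC-1low samples, a log2 fold change of -0.54 (SE 0.16, adjusted p = 0.409 by edgeR). DESeq2 called mt-Nd5 alone (adjusted p = 0.0764, 6.86% of all genes called), and limma-voom called 0 protein-coding genes and 0% of all genes.
mt-Nd4, mt-Nd5, mt-Nd6 and mt-Cytb were lower in all 3 MAC-1low samples than in any MAC-1- sample, 4 of the 12 genes, where 5.38% of all genes were, and 0 were higher in this way (5.95%). Scaled to the mitochondrial mRNA, which removes a change common to these genes by construction, their log2 fold changes were -0.035, 0.0014, -0.0193 and -0.0978, in that order. SS MAC-1low replicate 2 was the lowest sample of the 16 for all 7 genes. The median over the 12 genes was -0.45, and it was -0.27 without replicate 2 and -0.74 without replicate 1. The rRNAs were at -0.15 (SE 0.41) for mt-Rnr1 and -0.15 (SE 0.30) for mt-Rnr2.

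Transplantation was looked at by comparing populations of the same MAC-1 level. In MAC-1low HSCs all 7 abundant genes had higher means at 4 weeks than at SS, with log2 fold changes from 0.28 for mt-Nd6 to 0.83 for mt-Co1 and a median of 0.54, beside -0.02 over all genes. edgeR called 0 of the 12 and 0.0439% of all genes, and 6 of the 12 had an unadjusted p below 0.05 (8.89% of all genes). mt-Nd5 was at 3358, 2479, 2533 and 2814 CPM against 2277, 1585 and 1907 CPM, without overlap, a log2 fold change of 0.54 (SE 0.15, adjusted p = 0.336 by edgeR), and it was the 1 gene of the 12 called by DESeq2 (adjusted p = 0.0486, 4.71% of all genes called). limma-voom called 0 (0.139% of all genes). Samples at 4 weeks lay above those at SS without overlap for 4 of the 12, mt-Nd1, mt-Nd2, mt-Nd5 and mt-Co3 (5.44% of all genes), and below for 0 (4.98%). This comparison and that of the SS populations share the SS MAC-1low samples.

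In MAC-1- HSCs the 7 genes went both ways between SS and 4 weeks. mt-Nd1 was at 14270, 9531 and 9393 CPM at 4 weeks and at 6544, 5593 and 8234 CPM at SS, without overlap, a log2 fold change of 0.70 (SE 0.26, adjusted p = 0.379 by edgeR). mt-Nd6 was at 1022, 695 and 845 CPM at 4 weeks and 1221, 1055 and 1478 CPM at SS, also without overlap, at -0.55 (SE 0.21, adjusted p = 0.401). With mt-Co2 and mt-Co3, 3 of the 12 genes lay above without overlap (9.24% of all genes) and 1 below (7.40%). The rRNA of the small subunit, mt-Rnr1, was at -1.07 (SE 0.42, adjusted p = 0.411) with samples that overlapped. edgeR, DESeq2 and limma-voom each called 0 protein-coding genes (0.432%, 7.89% and 0.637% of all genes), and an unadjusted p below 0.05 was found for mt-Nd1 and mt-Nd6 (10.4% of all genes).
Whether the MAC-1low to MAC-1- difference itself changed between SS and 4 weeks was tested as an interaction. It was positive for all 7 abundant genes, from 0.04 for mt-Nd1 to 0.84 (SE 0.29) for mt-Nd6, and none was called by edgeR, DESeq2 or limma-voom (0.0586%, 5.38% and 0.132% of all genes), with the lowest adjusted p of edgeR at 0.448 for mt-Nd5. An unadjusted p below 0.05 was found for 4 of the 12, mt-Co3, mt-Nd2, mt-Nd5 and mt-Nd6, beside 8.73% of all genes.

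The comparisons across both MAC-1 level and time held the values nearest to a call. mt-Nd1 in 4 week MAC-1- against SS MAC-1low HSCs, where 6868, 3153 and 5120 CPM stood against the values at 4 weeks given above, had a log2 fold change of 1.13 (SE 0.26) and an adjusted p of 0.102 by edgeR and 0.0119 by DESeq2. mt-Cytb followed at 0.95 (SE 0.26), with 0.200 by edgeR and 0.0675 by DESeq2. edgeR called 0 and DESeq2 2 of the 12 protein-coding genes here, beside 0.505% and 6.87% of all genes, limma-voom called 0 (1.80%), and 5 had an unadjusted p below 0.05 (9.93%). Samples lay above without overlap for 6 (9.57%) and below for 0 (8.10%).
mt-Nd2 in 4 week MAC-1+ against SS MAC-1low HSCs, where the latter were at 2732, 1653 and 2711 CPM, had a log2 fold change of 1.01 (SE 0.27) with an adjusted p of 0.118 by edgeR and 0.0190 by DESeq2. mt-Nd6 was at 0.62 (SE 0.21), with 0.255 and 0.0727. Here too edgeR called 0 and DESeq2 2 of the 12 (1.42% and 9.55% of all genes), limma-voom 0 (0.908%), and 5 had an unadjusted p below 0.05 (12.1%). Samples lay above without overlap for 5 (7.71%) and below for 0 (8.56%). Without SS MAC-1- replicate 2 or 3, samples of neither population that share in the estimate of the spread, edgeR's adjusted p of mt-Nd2 was 0.0965 or 0.0700, which is a call.
Against SS MAC-1- HSCs, the 4 week MAC-1low and 4 week MAC-1+ HSCs each gave 0 calls by edgeR (0.190% and 2.36% of all genes), and 0 by DESeq2 (8.09% and 12.5%) and by limma-voom (0.285% and 1.62%). In each 1 of the 12 had an unadjusted p below 0.05, mt-Co3 and mt-Atp8, the genes with a single high sample described above (10.7% and 14% of all genes). Without overlap, 0 lay above and 0 below in the former (5.67% and 5.47%), and 3 above, mt-Co2, mt-Atp6 and mt-Co3, and 1 below, mt-Nd5, in the latter (8.36% and 8.62%).

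Among the tRNA genes the values at 4 weeks stood mostly above those at SS, on low counts. The 4 shown next lie on the minus strand between mt-Nd1 and mt-Co1, mt-Tq before and the others after mt-Nd2. DESeq2, whose calls need care as stated above, called them more often than the other tRNA genes. Their sequences are DNA letters of the tRNA's own strand from GENCODE M21, with no part marked.
mt-Tq: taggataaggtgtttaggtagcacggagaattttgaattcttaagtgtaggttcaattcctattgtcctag
mt-Ta: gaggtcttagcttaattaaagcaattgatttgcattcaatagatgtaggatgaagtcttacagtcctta
mt-Tn: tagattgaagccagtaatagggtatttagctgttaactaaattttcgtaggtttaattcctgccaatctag
mt-Tc: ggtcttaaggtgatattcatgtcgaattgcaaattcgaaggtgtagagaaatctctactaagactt
They carry glutamine, alanine, asparagine and cysteine. The library does not mark the strand, so that reads of these genes cannot be told apart from reads of the opposite strand. Nor do the counts tell a cut tRNA from a longer transcript that still holds it. They are therefore reads on tRNA genes and not levels of mature tRNAs.

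mt-Tc was at 5.72, 9.28 and 13.3 CPM in SS MAC-1- and at 4.85, 4.53 and 8.04 CPM in SS MAC-1low samples. At 4 weeks it was at 50.9, 32.1 and 23.6 CPM in MAC-1-, at 30.9, 11.3, 15.4 and 25.6 CPM in MAC-1low and at 37.4, 24.1 and 16.1 CPM in MAC-1+ samples. All 4 week MAC-1- and MAC-1+ samples were above all SS samples, and 1 4 week MAC-1low sample was not. Its log2 fold change was, for the 4 week over the SS MAC-1- HSCs, 1.91 (SE 0.67, adjusted p = 0.374 by edgeR and 0.00529 by DESeq2), and for the 4 week over the SS MAC-1low HSCs 1.84 (SE 0.65, adjusted p = 0.458 and 0.00518). mt-Tn gave 1.81 (SE 0.68) and 1.83 (SE 0.66) in the same comparisons, mt-Ta 2.20 (SE 1.00) and 2.10 (SE 0.96), and mt-Tq 1.31 (SE 0.69) and 2.08 (SE 0.68).
edgeR and limma-voom called 0 of the 14 tRNA genes tested in any comparison. In 4 week MAC-1- against SS MAC-1- HSCs 3 of the 14 had an unadjusted p below 0.05 with edgeR (10.4% of all genes) and DESeq2 called 4 (7.89%), and in 4 week MAC-1low against SS MAC-1low HSCs 4 had (8.89%) and DESeq2 called 4 (4.71%). Samples lay higher at 4 weeks without overlap for 8 of the 14 genes in the former (9.24% of all genes) and for 4 in the latter (5.44%), and lower for 0 (7.40% and 4.98%). Among the 8 were mt-Ty and mt-Ts1, with 0 to 2 and 0 to 5 counts in the SS samples. These passed the filter on low counts only through 4 week samples, so they could hardly have been found lower at 4 weeks. Between the populations of 1 time point, neither edgeR nor DESeq2 called a tRNA gene.
3 of the 14 had lower fitted levels at 4 weeks in MAC-1- HSCs, with log2 fold changes of -0.54 (SE 0.49) for mt-Tp, -0.38 (SE 1.22) for mt-Ti and -2.20 (SE 1.77) for mt-Tg, and mt-Tp and mt-Ti were at -0.01 (SE 0.46) and -0.48 (SE 1.13) in MAC-1low HSCs, with samples that overlapped in each case. mt-Tp, the tRNA gene with the highest median level, had population means from 27.1 CPM ± 9.67 (n = 4) in 4 week MAC-1low to 44.8 CPM ± 19.6 (n = 3) in SS MAC-1- HSCs.

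**Figure D5:**
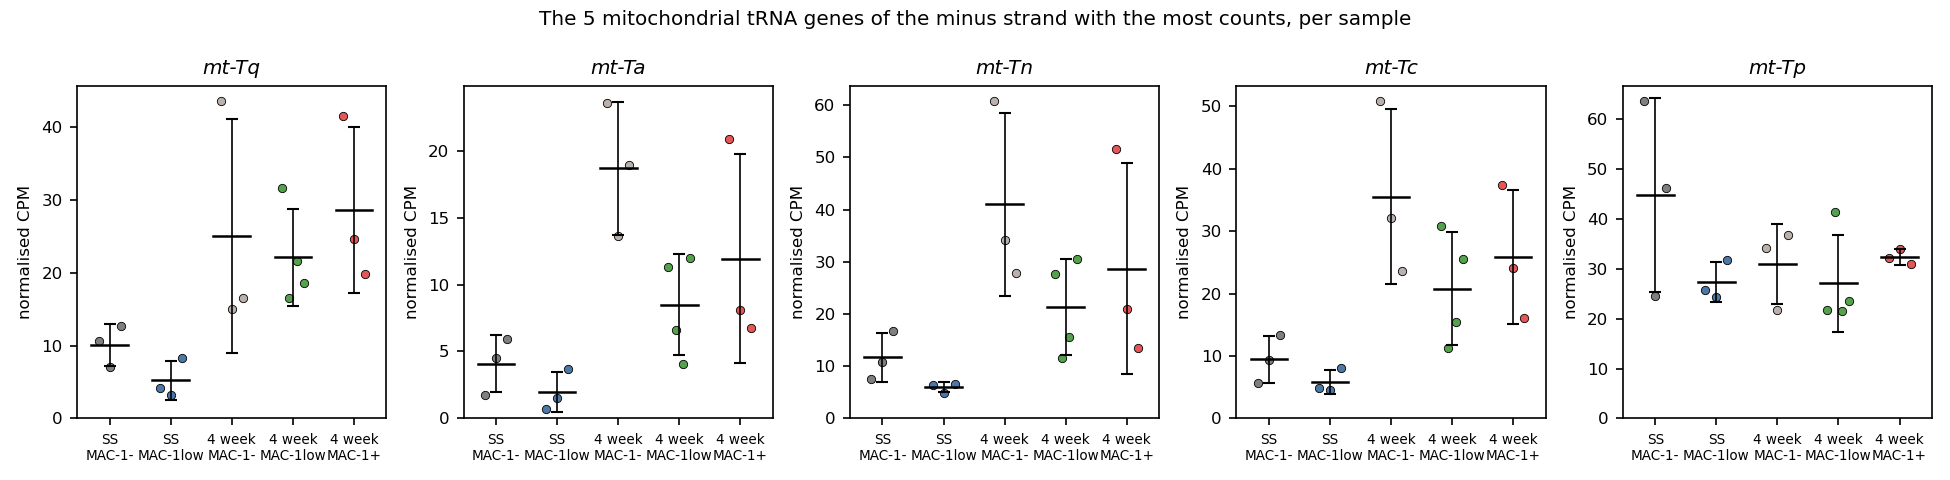
Normalised CPM of mt-Tq, mt-Ta, mt-Tn, mt-Tc and mt-Tp is plotted for each sample by population, with means and bars of 1 SD. For mt-Tc all 4 week MAC-1- and MAC-1+ samples, at 16.1 to 50.9 CPM, lie above the SS samples, at 4.53 to 13.3 CPM, and mt-Tp shows no such order.

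The 3 tRNA genes with no counts are shown because each has a neighbour among the 6 protein-coding genes of low counts.
mt-Td: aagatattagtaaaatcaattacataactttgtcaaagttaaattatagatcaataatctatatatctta
mt-Tk: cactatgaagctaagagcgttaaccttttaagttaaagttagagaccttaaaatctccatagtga
mt-Tr: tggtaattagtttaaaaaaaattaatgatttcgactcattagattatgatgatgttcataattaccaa
mt-Td lies between mt-Ts1 and mt-Co2, mt-Tk between mt-Co2 and mt-Atp8, and mt-Tr between mt-Nd3 and mt-Nd4l. Such a neighbour is not particular to them. mt-Tg lies between mt-Co3 and mt-Nd3 and had counts in 14 of the 16 samples, with 36 at most. A count of 0 allows up to 3 counts, or 0.112 to 0.220 CPM, in a sample.

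The nuclear genes that express the mitochondrial genome were looked at in 4 lists, for transcription, replication, RNA processing and stability, and translation factors. Of 64 names, 61 lines were found and 59 genes were tested, and edgeR called 0 of them in each of the 10 pairwise comparisons, in the interaction and in the test over the 5 populations. At an unadjusted p below 0.05, between 2 (4 week MAC-1+ against 4 week MAC-1low) and 11 of the 59 (4 week MAC-1+ against SS MAC-1-, 4 higher and 7 lower) were found in a pairwise comparison, beside 6.85% and 14% of all genes in these 2. Tfam, which packs mitochondrial DNA and starts its transcription, had population means from 108 CPM ± 26.2 in 4 week MAC-1+ to 161 CPM ± 41.1 in 4 week MAC-1low HSCs. Between the 4 week MAC-1+ and the 4 week MAC-1- HSCs its log2 fold change was -0.29 (SE 0.40, adjusted p = 0.867 by edgeR). Tefm, the elongation factor of mitochondrial transcription, was at 126 CPM ± 68.1 in SS MAC-1- and 42.7 CPM ± 24.1 in SS MAC-1low HSCs, a log2 fold change of -1.56 (SE 0.64, adjusted p = 0.521). Polrmt, the mitochondrial RNA polymerase, ranged from 0 to 418 counts, and Lrpprc, which stabilises mitochondrial mRNAs, from 78 to 1339 counts, and neither was called in any comparison.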

How the data were processed

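RNA of sorted HSCs was measured in 16 samples of 5 populations, assigned by their labels. The authors deposited 1 table of raw counts per gene. Per their methods, SMART-Seq and Nextera libraries, which carry no molecular identifiers and do not mark strand, were aligned with STAR in an nf-core pipeline; the sources used here do not give the counter, build, annotation or treatment of reads with several matches. Of the lines, 0 name no gene.

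The genes, lists and comparisons were chosen with earlier results of these data known. Named are the 13 protein-coding and 2 rRNA genes, tRNA genes past the filter, nuclear copies with a mean of 10 counts or more, and, of the nuclear lists, Tfam, Polrmt, Tefm, Lrpprc and any gene called. Gm28438, below that mean, was named after its values were seen. Gm10222 was named for its shared windows, and its counts were not looked at.

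The tests used R 4.3.3, edgeR 4.0.16 (default filter, TMM, robust quasi-likelihood, a mean per population), DESeq2 1.42.0 and limma 3.58.1. CPM are TMM-scaled. Adjusted p below 0.1 was called. On simulated counts with the spread of these samples, edgeR kept its false calls below the threshold but missed most changed genes, and DESeq2 made more false than true calls. Alternatives were other tools, scalings, filters, covariates, a replicate block and leaving out each sample. Sequences came from GENCODE M21 (Biopython 1.88, compared without gaps). Every pair of replicates differed by more than sampling noise (chi-square per degree of freedom of 120 or more).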

Additional observations from a re-analysis of the deposited data

Results flagged for a closer look

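In the population with 4 samples, 4 week MAC-1low, 36 values were looked at for a sample far from the other 3, by Dixon's ratio, which chance alone exceeds in about 1 in 20 groups, and 4 stood out. mt-Co3 was at 1939 CPM in replicate 1 and at 16.4 to 29.0 CPM in the others. The tRNA gene mt-Tp was at 41.5 CPM in replicate 2 and at 21.5 to 23.6 CPM in the others. mt-Ty was at 1.42 CPM (38 counts) in replicate 4 and at 0 in the others, and mt-Ts1 at 0.858 CPM (14 counts) in replicate 1 and at 0.138 to 0.206 CPM (3 to 4 counts) in the others. What sets these samples apart was not tested.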

How the results depend on the processing

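The number of protein-coding genes called was 0 by edgeR in each pairwise comparison, and 0 to 2 there under every alternative run. For 4 week MAC-1+ against 4 week MAC-1- it was 1 by DESeq2, 2 by limma-voom, 1 with library totals alone and 1 with the mitochondrial mRNA as the library size (both mt-Nd2). For 4 week MAC-1+ against SS MAC-1low it was 2 by DESeq2, 1 with library totals alone, 1 with a stricter filter, and 0 to 1 with each sample left out. For 4 week MAC-1- against SS MAC-1low it was 2 by DESeq2, 1 with a stricter filter, and 0 to 1 with each sample left out. DESeq2 called 1 for SS MAC-1low against SS MAC-1- and 1 for 4 week MAC-1low against SS MAC-1low. The test over the 5 populations, with 1 call, gave 3 by DESeq2, 0 by limma-voom, 0 with a covariate for detected genes, 0 with the mitochondrial mRNA as the library size and 0 to 1 with each sample left out. Without a filter it called mt-Nd6 in place of mt-Co3. mt-Rnr2 was called between the 4 week MAC-1+ and the 4 week MAC-1- HSCs only without SS MAC-1low replicate 3 among the edgeR fits (adjusted p = 0.0789).

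Samples with the same replicate number did not deviate together over all genes (r of -0.0249 to 0.0397 over 30 pairs) and were taken to share only a number. The column names number the 4 week samples serially, and neighbours in that order do not always have the same replicate number. The samples at the start of that order are replicate 1 of each 4 week population. SS samples are numbered serially too, and there each MAC-1low sample and the MAC-1- sample after it have the same replicate number. Sets by serial number were not looked at. These r values and the replicate block therefore cannot say whether samples sorted together were related. For the mitochondrial genes, replicate 1 had the highest share of counts on protein-coding genes in each 4 week population (8.41%, 8.84% and 8.64%, against 5.62% to 7.85% in the other samples there). With the replicate block edgeR called 2 protein-coding genes, mt-Nd1 and mt-Cytb, in 4 week MAC-1- against SS MAC-1low (both adjusted p = 0.0491) and 0 in the test over the 5 populations.

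The median log2 fold change of the 12 genes, with each sample left out, ranged from -0.27 to 0.23 for 4 week MAC-1+ against 4 week MAC-1-, from -0.0866 to 0.37 for 4 week MAC-1+ against 4 week MAC-1low, from -0.74 to -0.27 for SS MAC-1low against SS MAC-1-, from 0.32 to 0.79 for 4 week MAC-1+ against SS MAC-1low and from 0.31 to 0.78 for 4 week MAC-1- against SS MAC-1low. The lowest or highest of these came without 4 week MAC-1+ replicate 1, 4 week MAC-1low replicate 1, SS MAC-1low replicate 1, 4 week MAC-1+ replicate 1 and SS MAC-1low replicate 2, in that order. Scaling to the mitochondrial mRNA, which removes a change common to these genes by construction, gave 0.042 for SS MAC-1low against SS MAC-1-, -0.0926 for the 4 week against the SS MAC-1- HSCs, -0.16 for 4 week MAC-1low against SS MAC-1low, 0.0283 for 4 week MAC-1+ against SS MAC-1low, -0.18 for 4 week MAC-1- against SS MAC-1low and 0.0851 for the interaction. Library totals alone moved the median of all genes by 0.15 for 4 week MAC-1+ against 4 week MAC-1- and by -0.19 for 4 week MAC-1- against SS MAC-1low.

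The share of counts on protein-coding genes in SS MAC-1- was 6.495% of nuclear counts and 6.83% with rRNA and tRNA genes added. Without the 100 nuclear genes with the highest mean counts it was 7.62% there, 9.07% in 4 week MAC-1-, 8.95% in 4 week MAC-1low and 8.47% in 4 week MAC-1+. Of the values that answer a comparison, which are counts of calls, medians and shares, 748 stayed near the main value and 50 moved, over all alternatives. A median counted as moved when it shifted by 0.251 or more, the pooled SD between samples. Direction was not judged. The median for 4 week MAC-1low against 4 week MAC-1-, for example, ran from -0.16 to 0.19 with each sample left out and did not count as moved. The fit of only the compared populations was run with edgeR alone, and it does not apply to the test over the 5 populations. The cause of these changes was not tested. Low counts, with a median under 100 for 9 of the 14 tRNA genes tested, limit the precision of these genes, as does the spread between replicates.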
